A study of Homo sapiens with 6 samples.

Results

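The genes described are 10 membrane receptors for TGF-β, activins and bone morphogenetic proteins (BMPs), namely TGFBR1, TGFBR2, TGFBR3, ENG, ACVR1, ACVR1B, ACVR2A, ACVR2B, BMPR1A and BMPR2. They were chosen by gene symbol, with earlier results of these data known, and all 10 were found among the 24462 symbols of the count tables, with 1 row each. The mRNA was measured by RNA-seq in PC3, an established human prostate cancer line that came from a metastasis in bone. Of the 6 libraries, 3 were labelled Control, from cells given a non-targeting siRNA, and 3 were labelled si-CITED2, from cells given siRNA against CITED2, a transcriptional co-regulator that binds p300 and CBP. All cells received 80 nM of siRNA for 72 h in medium with serum. The study asked how knockdown of CITED2 alters expression in these cells, and the descriptions of the libraries name 1 cell line and 1 non-targeting control.

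Ligands of this family are dimers that bring together receptors of both classes, called type II and type I, which are serine/threonine kinases. The type II kinase is active by itself and phosphorylates the type I receptor, which then phosphorylates SMAD proteins. SMAD2 and SMAD3 serve the TGF-β and activin receptors, and SMAD1, SMAD5 and SMAD9 serve the BMP receptors. Co-receptors such as betaglycan and endoglin bind ligand but have no kinase. In prostate epithelium TGF-β is known for arresting growth, and in advanced prostate cancer for its links to invasion and bone metastasis.

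BMPR2 and TGFBR1 mRNA were higher, and TGFBR2 mRNA was lower, in the libraries labelled si-CITED2 than in those labelled Control. BMPR2 was 1.58-fold higher and TGFBR1 1.3-fold higher, whereas TGFBR2 stood at 0.845 times its Control level. The other 7 receptor genes did not pass the test. Each gene was tested with edgeR's quasi-likelihood test on the counts, fitted to all 16314 genes that passed a filter on low counts, and a gene was called at a Benjamini-Hochberg adjusted p under 0.05. All 10 receptor genes passed that filter. Over all genes tested, 17.4% were called in either direction, 9.36% as higher and 8.09% as lower, against 2 receptor genes called higher and 1 called lower. Levels in a bulk library do not tell fewer expressing cells from less mRNA per cell. The log2 fold change was above 0 for 6 of the 10 receptor genes and for 49.7% of all genes tested. Its median was 0.0953 over the 10 receptor genes and -0.00137 over all genes tested.

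The CITED2 mRNA was not lower in the libraries labelled si-CITED2. Its normalized count, which is the count scaled to a common library size by TMM, was 858.6, 892 and 773 in the libraries labelled Control and 1084, 921.1 and 983.9 in those labelled si-CITED2. The fold was 1.18 (95% interval 1.06 to 1.32, adjusted p = 0.03626, edgeR). That call was lost without TMM (adjusted p = 0.0518, edgeR) and in 4 of the 6 edgeR fits that left out a library, which were those without Control replicate 1 or 3 and without si-CITED2 replicate 1 or 3 (adjusted p from 0.0536 to 0.154). The study also examined CITED2 protein in these cells by immunoblot as its check of the knockdown, which is not analysed here. Each direction given here is between libraries as labelled. The total count ranged from 19508925 to 28936374 per library, so that 3 counts, the least taken as detectable, stood for 0.104 to 0.154 CPM, that is, counts relative to the total of their library. The epithelial markers EPCAM, KRT8, KRT18 and CDH1 had at least 1735 counts in every library, and all 4 passed the test in edgeR. Under the label si-CITED2, CDH1, or E-cadherin, stood at 0.699 times its Control level (adjusted p = 1.673e-05, edgeR) and EPCAM at 0.795 times (adjusted p = 0.001101, edgeR). The keratins were higher, KRT8 1.18-fold (adjusted p = 0.002597, edgeR) and KRT18 1.13-fold (adjusted p = 0.02667, edgeR). KLK3, which encodes prostate-specific antigen and is known to be absent or low in PC3, had at most 2 counts. The leukocyte genes PTPRC and CD3E had at most 2 counts, while CD68, which many cell types express, had 2622 to 3947. The summed normalized count of these 3 was 3180 to 3430 in the libraries labelled Control and 2870 to 3440 in the others. The fibroblast markers PDGFRA, PDGFRB, COL1A1 and LUM summed to 129 to 131 normalized counts in the libraries labelled Control and 154 to 181 in those labelled si-CITED2, with PDGFRA at 1 to 2 counts against 7 to 11 and LUM at 0 in 5 of the 6 libraries. The part of these markers in the results was not tested.

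**Figure D1:**
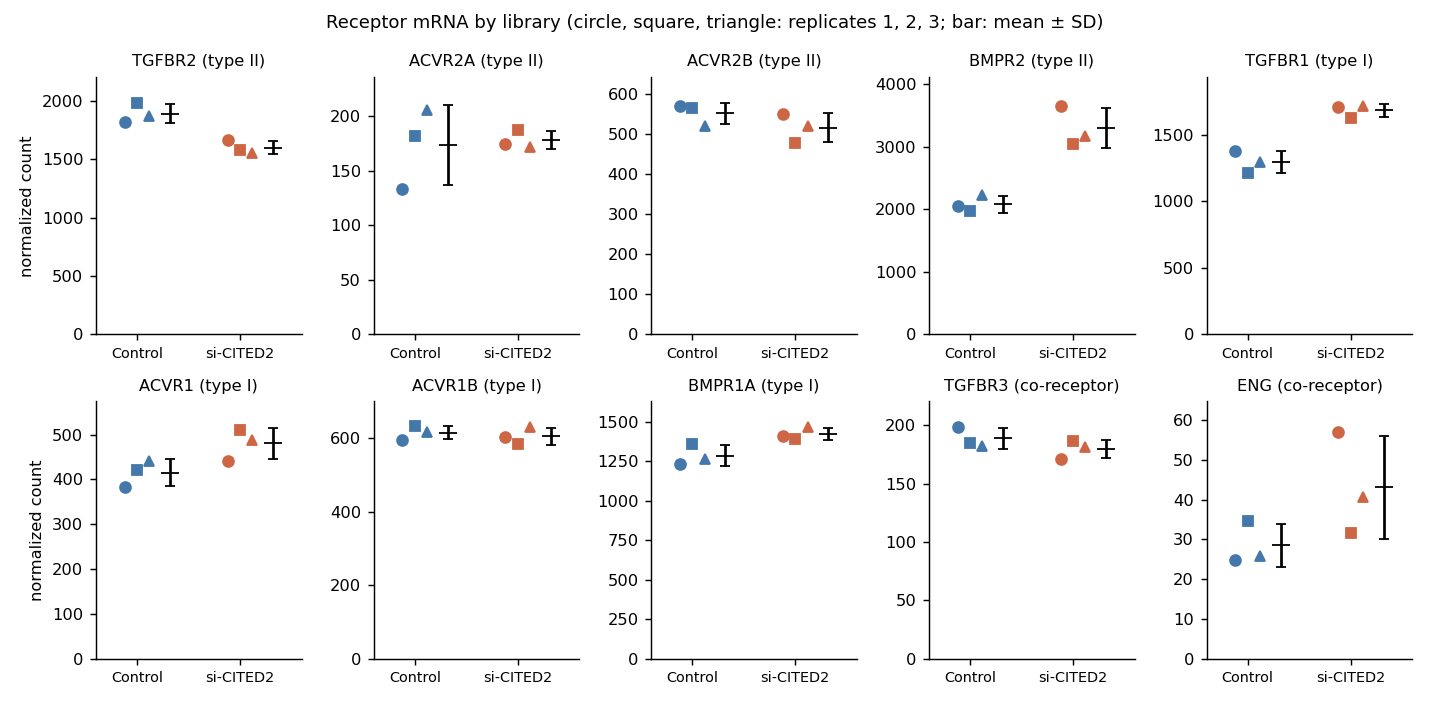
Normalized counts (vertical axis, from 0) of the 10 receptor genes in each library, grouped by label (horizontal axis), with the mean and SD of each group (n = 3) as a bar. The groups are apart for BMPR2, TGFBR1, ACVR1 and BMPR1A, which lie higher under the label si-CITED2, and for TGFBR2, which lies lower.

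The promoter windows of the 3 receptor genes that passed the test are printed because these genes moved in both directions. They are the 250 bases before the start site that RefSeq gives nearest to the start of the longest coding transcript in GENCODE 29, from which it lay 609 bases for BMPR2, 6 for TGFBR1 and 99 for TGFBR2. The capitals mark GCCNNNGGC, the motif of the AP-2 factors, which are known partners of CITED2.
BMPR2 promoter, GRCh38.p14 chr2:202376077-202376326, plus strand: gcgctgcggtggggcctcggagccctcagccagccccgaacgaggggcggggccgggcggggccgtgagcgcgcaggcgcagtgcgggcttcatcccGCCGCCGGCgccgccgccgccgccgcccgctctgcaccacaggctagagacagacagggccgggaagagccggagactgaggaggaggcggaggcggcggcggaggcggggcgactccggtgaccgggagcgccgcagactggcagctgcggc
TGFBR1 promoter, GRCh38.p14 chr9:99104833-99105082, plus strand: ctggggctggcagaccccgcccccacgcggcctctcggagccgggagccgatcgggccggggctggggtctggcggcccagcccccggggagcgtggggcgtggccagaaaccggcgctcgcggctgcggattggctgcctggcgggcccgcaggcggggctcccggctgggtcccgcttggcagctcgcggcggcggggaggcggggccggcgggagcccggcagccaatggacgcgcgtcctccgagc
TGFBR2 promoter, GRCh38.p14 chr3:30606351-30606600, plus strand: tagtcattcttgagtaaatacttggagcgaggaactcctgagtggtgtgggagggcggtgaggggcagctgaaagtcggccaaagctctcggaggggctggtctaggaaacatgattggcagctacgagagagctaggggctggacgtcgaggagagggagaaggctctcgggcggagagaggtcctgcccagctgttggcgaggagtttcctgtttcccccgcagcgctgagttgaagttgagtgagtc
The AP-2 motif reads the same on both strands. It occurred once upstream of BMPR2, in a stretch that overlaps a GGCGCC, and in these letters it was absent from the printed windows of TGFBR1 and TGFBR2. Of the other 7 receptor genes, none of which passed the test, ACVR1B and ENG also held it once each in the window chosen in this way. GGCGCC, a sequence that SMAD proteins of the BMP branch can bind, was likewise present once upstream of BMPR2 and absent from the printed windows of TGFBR1 and TGFBR2, while that of ACVR1B held it 4 times. The palindrome GTCTAGAC, bound by SMAD3 and SMAD4, was in none of these windows. RefSeq gives 8 windows for TGFBR1, 2 for TGFBR2 and 21 for the 10 receptor genes, of which 6 held GCCNNNGGC, 4 held GGCGCC and 0 held GTCTAGAC. Of 35116 RefSeq promoter windows of this length, 19.8% held GCCNNNGGC, 16.4% held GGCGCC and 0.182% held GTCTAGAC. The GC content was 79.2% upstream of BMPR2, 81.2% upstream of TGFBR1 and 58.4% upstream of TGFBR2, against a median of 58% over all windows.

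The type II receptors are the ligand-binding kinases TGFBR2, ACVR2A, ACVR2B and BMPR2. BMPR2, the type II receptor of the BMPs, had normalized counts of 2047, 1967 and 2230 in the libraries labelled Control. In those labelled si-CITED2 it had 3649, 3041 and 3175. The lowest of the latter lay well above the highest of the former, and si-CITED2 replicate 1 was the highest library. Its log2 fold change was 0.66 (SE 0.068, adjusted p = 2.522e-06, edgeR), the largest of the 10 genes, and the means were 2081 ± 135 and 3288 ± 319 (SD, n = 3).

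TGFBR2, the type II receptor of TGF-β, moved the other way. Its normalized counts were 1818, 1981 and 1870 in the libraries labelled Control and 1661, 1576 and 1555 in those labelled si-CITED2. The groups did not overlap, and Control replicate 1 and si-CITED2 replicate 1 were the nearest across the labels. The log2 fold change was -0.24 (SE 0.056, adjusted p = 0.005754, edgeR), from 1889 ± 83.2 to 1597 ± 56.4 (SD, n = 3).

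The activin type II receptors did not pass the test. ACVR2B, which also binds BMPs and myostatin, had 568.8, 565.2 and 520.1 normalized counts in the libraries labelled Control. It had 550.1, 476.8 and 520.4 in those labelled si-CITED2, and these values overlapped. The 95% interval of its fold was 0.829 to 1.05 (adjusted p = 0.4515, edgeR). ACVR2A, the closely related activin receptor, had 133.3, 182 and 205.9 normalized counts in the libraries labelled Control and 174.9, 187.3 and 172 in the others. Control replicate 1 was the lowest and Control replicate 3 the highest of the 6, so that the Control values enclosed those labelled si-CITED2. The fold of ACVR2A was 1.03 (95% interval 0.83 to 1.28, adjusted p = 0.8808, edgeR), and without Control replicate 1 its log2 fold change was -0.12. In the GENCODE 29 annotation, exons of ACVR2A overlap those of ORC4 on the opposite strand. ORC4 had 3771 to 5704 counts per library, and without a stated strand setting reads from the shared stretch cannot be assigned to either gene.

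**Figure D2:**
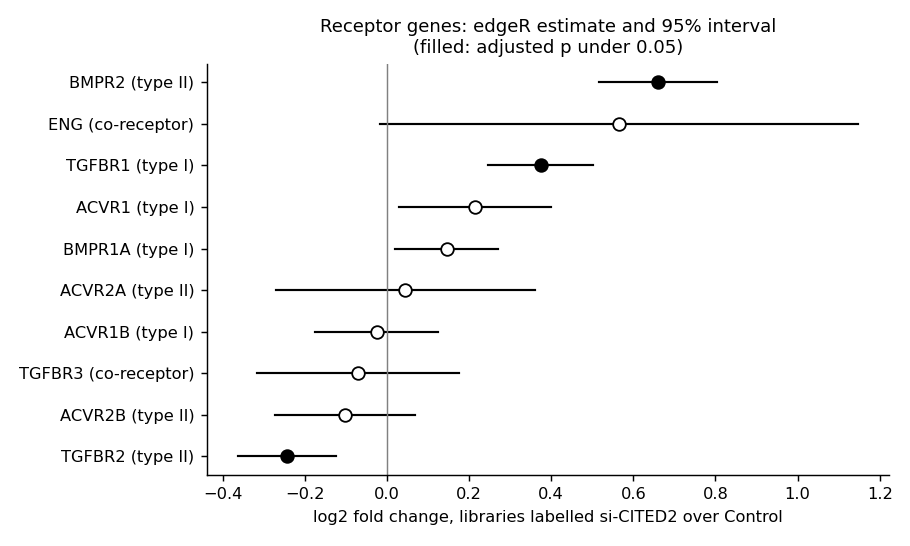
Log2 fold change (horizontal axis, label si-CITED2 over label Control) of each receptor gene with its 95% interval as a line. The filled points, BMPR2 at 0.66, TGFBR1 at 0.37 and TGFBR2 at -0.24, have an adjusted p under 0.05, and ENG has the widest interval.

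The type I receptors are TGFBR1, ACVR1, ACVR1B and BMPR1A, the kinases that phosphorylate SMADs. TGFBR1, also called ALK5, serves TGF-β. It had 1378, 1213 and 1298 normalized counts in the libraries labelled Control and 1704, 1625 and 1714 in those labelled si-CITED2. Every value of the latter group lay above every value of the former. The log2 fold change was 0.37 (SE 0.06, adjusted p = 0.0002938, edgeR), from 1297 ± 82.6 to 1681 ± 48.3 (SD, n = 3).

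Both type I receptors of the BMP branch had higher means under the label si-CITED2 without passing the adjusted test. ACVR1, or ALK2, had 383.1, 421.9 and 441.2 normalized counts in the libraries labelled Control and 442, 510.2 and 488.6 in those labelled si-CITED2. The highest Control library and the lowest si-CITED2 library differed by less than 1 normalized count. Its fold was 1.16 (95% interval 1.02 to 1.32), with an unadjusted p of 0.02654 and an adjusted p of 0.1109 in edgeR. BMPR1A, or ALK3, had 1233, 1358 and 1263 in the libraries labelled Control against 1410, 1389 and 1467. These groups did not overlap either, and the fold was 1.11 (95% interval 1.01 to 1.21, unadjusted p = 0.02508, adjusted p = 0.1066, edgeR).

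ACVR1B, or ALK4, the type I receptor for activins, had nearly the same level under both labels. Its normalized counts were 596.4, 632.8 and 617.7 against 602.3, 584.8 and 630, and the groups overlapped throughout. The 95% interval of its fold was 0.886 to 1.09 (adjusted p = 0.8645, edgeR), and a small change within it cannot be told from none.

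The groups did not overlap for 5 of the 10 receptor genes, 4 higher and 1 lower under the label si-CITED2. Over all genes tested, 32.5% did not overlap, 16.4% as higher and 16.1% as lower. In an exact permutation test, which for 3 libraries against 3 cannot go below p = 0.1, these 5 genes reached that value. The same 5 genes had an unadjusted p under 0.05 in edgeR, against 29% of all genes tested.

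Neither co-receptor passed the test. TGFBR3 encodes betaglycan, which presents TGF-β2 to TGFBR2 and binds inhibin. It had 199.1, 185.2 and 182.4 normalized counts in the libraries labelled Control and 171.2, 186.3 and 181.9 in those labelled si-CITED2. The values overlapped, and the 95% interval of the fold was 0.804 to 1.13 (adjusted p = 0.7494, edgeR). ENG encodes endoglin, which is best known from endothelial cells and binds BMP9. It had only 22 to 47 counts per library. Its normalized counts were 24.89, 34.62 and 25.89 in the libraries labelled Control and 57.07, 31.53 and 40.54 in those labelled si-CITED2, so that si-CITED2 replicate 2 lay below Control replicate 2. The fold was 1.48, with a 95% interval of 0.989 to 2.21 (adjusted p = 0.1866, edgeR). Its log2 fold change of 0.57 became 0.32 without si-CITED2 replicate 1 and 0.76 without si-CITED2 replicate 2, and no fit that left out a library called it. The endothelial markers PECAM1, CDH5, VWF and KDR had at most 11 counts each in any library. Their summed normalized count was 14.1 to 22.5 in the libraries labelled Control and 12.4 to 19.7 in those labelled si-CITED2. None of the 4 was at 0 in all libraries, and CDH5 was lower in all 3 libraries labelled si-CITED2.

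To set the genes side by side, counts were divided by the length of the longest coding transcript of each gene in GENCODE 29 and by the total count of the library. On this scale of CPM per kilobase, TGFBR2 had the highest level in the libraries labelled Control, 17.4 ± 0.89 (SD, n = 3). TGFBR1 at 8.48 ± 0.48 and BMPR2 at 7.74 ± 0.5 came next and overlapped each other. ACVR1 at 5.82 ± 0.45 overlapped ACVR1B at 5.75 ± 0.22, and BMPR1A followed at 4.87 ± 0.28. A gap separated these 6 genes from ACVR2B at 1.99 ± 0.095, ACVR2A at 1.29 ± 0.28, TGFBR3 at 1.25 ± 0.05 and ENG at 0.397 ± 0.077, of which ACVR2A and TGFBR3 overlapped. The activin type II receptors were thus at lower levels per length than the type II receptors of TGF-β and BMPs in every library. The annotation used for counting is not given, and the transcripts it counted may differ in length from those of GENCODE 29. The order of the genes and the shares below depend on these lengths. The length of all exons combined was tried as 1 alternative, and the lengths of the transcripts that were counted were not tested.

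In the libraries labelled si-CITED2, BMPR2 stood above TGFBR1. The level per length of BMPR2 was 13.4, 11.2 and 11.7, and that of TGFBR1 was 11, 10.5 and 11.1. TGFBR2 remained the highest there at 14.6 ± 0.54 (SD, n = 3), and the order of the other genes was the same as under the label Control. With the length of all exons combined in place of the longest transcript, BMPR1A, ACVR1B and ACVR1 changed places in the libraries labelled Control, at 4.8, 4.61 and 4.44.

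**Figure D3:**
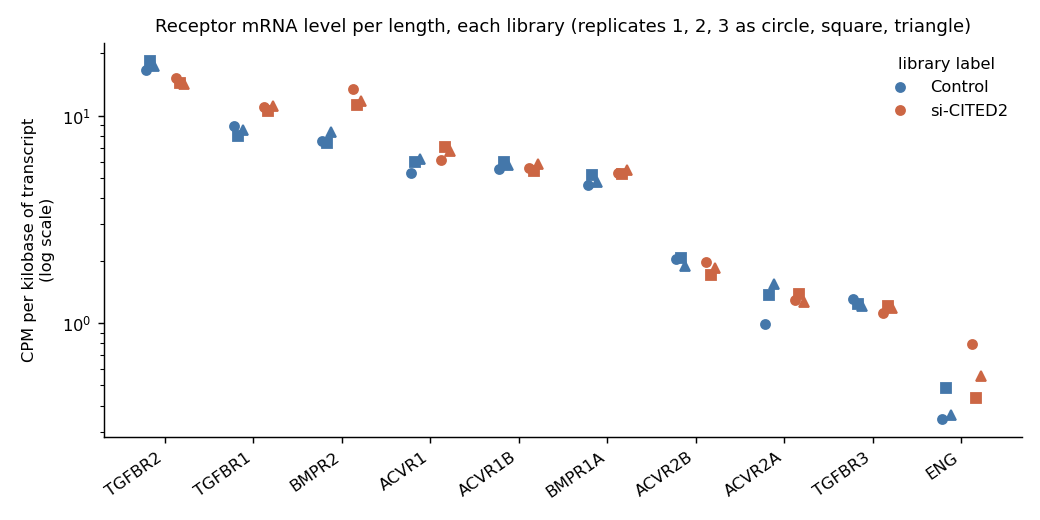
CPM per kilobase of transcript (vertical log axis) for each receptor gene (horizontal axis, ordered by the mean of the libraries labelled Control), 1 point per library. TGFBR2 is highest under both labels, and ACVR2B, ACVR2A, TGFBR3 and ENG lie below 2.1 in every library.

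The share that each receptor held of the level per length summed over its class gives the composition of the class within a library. Among type II receptors, TGFBR2 held 61.1%, 63% and 59.6% in the libraries labelled Control and 47.6%, 50.2% and 48.9% in those labelled si-CITED2. BMPR2 held 27.8%, 25.2% and 28.6% against 42.2%, 39.1% and 40.3%. The shares of ACVR2A and ACVR2B stayed below 8% in every library. With the length of all exons combined, the mean share of TGFBR2 was 63% against 50.4%, and that of BMPR2 was 27.5% against 40.9%. Among type I receptors, TGFBR1 held 34.1% ± 2.4 against 38.2% ± 1.1, and ACVR1B held 23.1% ± 0.58 against 19.7% ± 0.44 (SD, n = 3). Shares within a class are bound to each other, and each of these 4 differences reached the smallest value of the two-sided exact permutation test, p = 0.1.

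The ratio of type I to type II counts within a library does not depend on how libraries are scaled. For the TGF-β pair, TGFBR1 to TGFBR2, it was 0.758, 0.613 and 0.694 in the libraries labelled Control and 1.03, 1.03 and 1.1 in those labelled si-CITED2. The difference was 0.62 on the log2 scale (SE 0.095), and the groups were well apart. For the BMP pair, BMPR1A to BMPR2, the ratio was 0.602, 0.691 and 0.566 against 0.386, 0.457 and 0.462, a log2 difference of -0.51 (SE 0.12). It was therefore shifted towards the type I receptor in the TGF-β pair and towards the type II receptor in the BMP pair. Each of these 2 differences had p = 0.1 in a two-sided exact permutation test, the smallest possible, and 0.2 after Benjamini-Hochberg adjustment over the 4 pairs compared.

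For the activin pairs the ratios overlapped. ACVR1B to ACVR2A was 3.65 ± 0.75 against 3.41 ± 0.27 (SD, n = 3, exact permutation p = 0.8), and ACVR1B to ACVR2B was 1.12 ± 0.07 against 1.18 ± 0.072 (SD, n = 3, exact permutation p = 0.4). The adjusted values were 0.8 and 0.533. These are ratios of counts and carry the lengths of the transcripts, so that they compare libraries and not the number of molecules of the receptors.

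**Figure D4:**
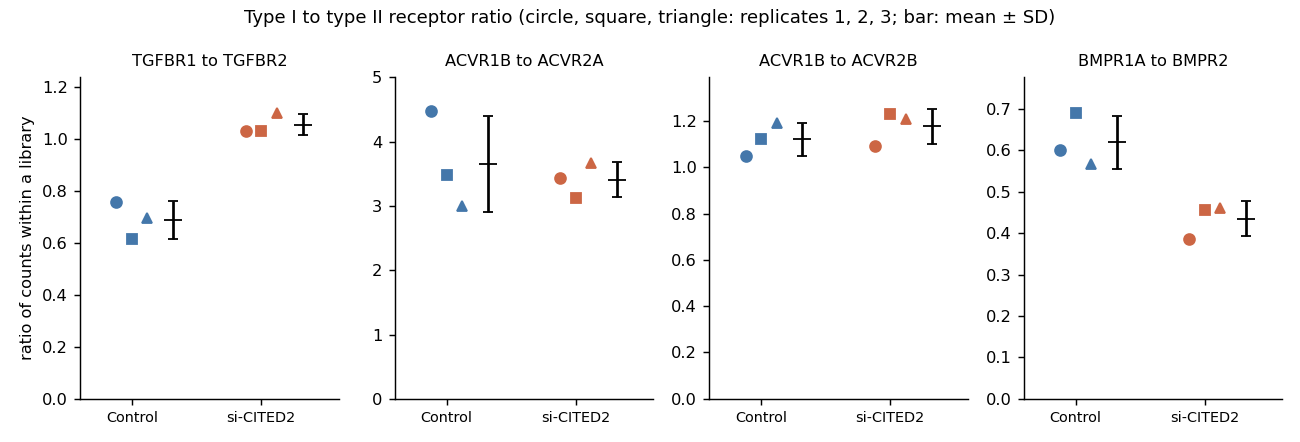
Ratio of type I to type II receptor counts within each library (vertical axis, from 0) for 4 pairs that act in a common complex, grouped by label, with mean and SD (n = 3) as a bar. TGFBR1 to TGFBR2 lies at 0.613 to 0.758 under Control and at 1.03 to 1.1 under si-CITED2, and BMPR1A to BMPR2 lies lower under si-CITED2.

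The remaining receptors of these families were scarce. BMPR1B, or ALK6, had 80 to 100 counts per library and did not pass the test (log2 fold change 0.07, adjusted p = 0.8107, edgeR). ACVR1C, or ALK7, had 8 to 23 counts and did not pass either (log2 fold change -0.28, adjusted p = 0.7304, edgeR). ACVRL1, the endothelial type I receptor ALK1, and AMHR2, the receptor of anti-Müllerian hormone, had at most 4 counts in any library and did not pass the filter on low counts.

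The lists of other pathway genes were written from general knowledge, and some of their members were already known to have risen in these libraries. Over the 73 genes of these lists, 55 were tested, 17 were higher and 4 were lower under the label si-CITED2. The shares over all genes tested, 9.36% higher and 8.09% lower, stand beside this count and each list below. The accessory membrane proteins, which help or hinder ligand binding, gave 0 genes higher and 2 lower of 6 tested. The 2 were GPC1, a heparan sulphate proteoglycan (log2 fold change -0.28, adjusted p = 0.001015, edgeR), and NRP1, or neuropilin 1 (-0.17, adjusted p = 0.03853, edgeR). RGMB, a BMP co-receptor, and its partner NEO1 did not pass, with log2 fold changes of -0.06 and 0.11. CD109 and BAMBI, both inhibitors of signalling, did not pass either, at 0.15 and 0.26. None of the 6 was higher in DESeq2 either, and 2 were higher at an unadjusted p under 0.05 in edgeR.

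Of 18 proteins that regulate the receptors, all tested, 8 were higher and 1 was lower under the label si-CITED2, with a median log2 fold change of 0.0991. The largest was PMEPA1, an inhibitor of SMAD2 and SMAD3 activation, at 3.60. SMAD7, which brings ubiquitin ligases to type I receptors, followed at 2.53, and SMURF2, such a ligase, at 1.12. SMAD6, the inhibitor of the BMP branch, was at 0.66, DAB2, an endocytic adaptor, at 0.43, and SMURF1 at 0.28. WWP1 was at 0.26 and FKBP1A, which holds type I receptors inactive, at 0.16. NEDD4L, another ubiquitin ligase, was lower at -0.21. Of those that did not pass, CAV1, STRAP, HGS and ARRB2 had the highest counts, with log2 fold changes between -0.04 and 0.06.

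SMAD3 was the only one of the 6 signalling SMADs to pass, at a log2 fold change of 0.34 (adjusted p = 0.0005752, edgeR). SMAD2, its counterpart under the same receptors, was at -0.12, SMAD5 at 0.1, the common partner SMAD4 at 0.05, SMAD1 at 0.1 and SMAD9 at -0.09, and none of these passed. Among the ligands of TGF-β and activin type, TGFB1 was higher at 0.29 (adjusted p = 0.0004112, edgeR), whereas GDF11 at -0.02, TGFB2 at 0.0023 and TGFB3 at 0.22 did not pass. The activin chains INHBA and INHBB had at most 14 counts in any library and were not tested. Of the BMP ligands, 7 were tested and 0 passed, of which BMP6, BMP8B, BMP8A and BMP4 had the highest counts and log2 fold changes of 0.11, 0.13, 0.1 and 0.08. At an unadjusted p under 0.05, 1 BMP ligand was lower in edgeR, BMP5, at -0.59, and DESeq2 called 0 of the 7.

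Genes known as targets of TGF-β receptor signalling were higher in 6 of 9 cases under the label si-CITED2 and lower in 0 (edgeR). At an unadjusted p under 0.05 in edgeR, and in DESeq2, 0 were lower. For comparison, 9.36% of all genes tested were higher and 8.09% lower, and some list members were already known to have risen. The median log2 fold change of these targets was 1.48. TGFBI, a matrix protein, was at 2.70, SKIL, a SMAD co-repressor, at 2.41 and CDKN1A, the CDK inhibitor p21, at 2.05. LTBP2 was at 1.54, CTGF at 1.48 and CYR61 at 0.80. COL1A1, CDKN2B and SNAI2 did not pass, at 0.32, 0.20 and 0.82. Genes known as targets of BMP receptors did not share a direction. ID3 was higher at 0.49 (adjusted p = 0.0009738, edgeR), ID1 was lower at -0.70 (adjusted p = 5.366e-05, edgeR), and ID2 was at -0.09 with 16 to 30 counts per library. Given as folds and not on the log2 scale, the receptors lay between 0.845 and 1.58, TGFBI at 6.52 and SKIL at 5.3. CYR61, the smallest of the 6 called targets, stood at 1.74-fold.

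**Figure D5:**
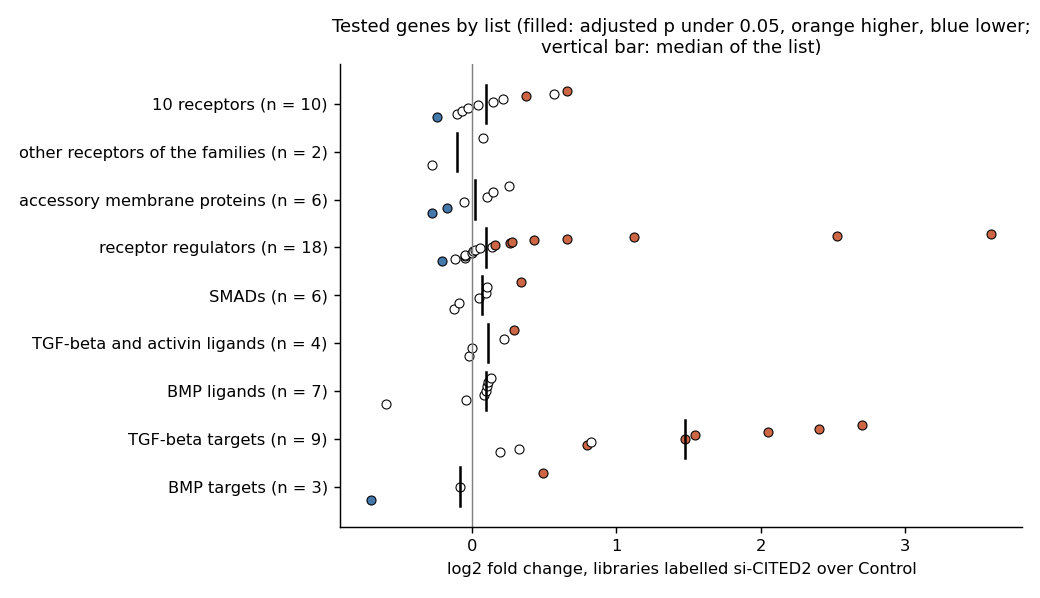
Log2 fold change (horizontal axis, label si-CITED2 over label Control) of every tested gene in each list (vertical axis), with the median of the list as a bar and genes with an adjusted p under 0.05 filled. The 10 receptors span -0.24 to 0.66, the TGF-β targets 0.20 to 2.70 and the receptor regulators -0.21 to 3.60.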

How the data were processed

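RNA was extracted with Trizol, and libraries were made with a SMARTer mRNA-seq kit. The values that the authors deposited are unnormalized read counts for each gene symbol, in 1 table per library. The submitters' processing notes name TopHat, edgeR and the build hg19, and the counting program, annotation and strand setting are not given in the sources used here. For symbols listed more than once, only the row with the highest total was used, so that 0.0821% of counts were set aside.

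Counts were fitted in R 4.3.3 with edgeR 4.0.16 (filterByExpr, TMM, quasi-likelihood test), without a block because the study used unpaired tests. Standard errors and 95% intervals came from the F statistic, and p-values were adjusted over all 16314 genes. The alternatives were DESeq2 1.42.0, no TMM, 2 other filters, summed rows, the replicate block and leaving out each library, and exon union length was added after seeing the data.

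The members and lists were chosen with earlier results of these data known. The text names all 10 receptors and, from each list, the called genes and up to 4 others with the highest counts. Named besides these are SMAD9, BMP5 and INHBB. Of the genes on these lists, 3 are not reported here and were left out of the counts of their lists. Transcript lengths came from GENCODE 29. RefSeq gives 21 promoter windows for the 10 symbols (GRCh38.p14). Chi-square per degree of freedom between libraries of the same label was 2.89 or more, above sampling noise. The study describes 3 independent experiments, but the labels name no separate cultures. The p-values set the difference between labels against the spread of these libraries, and whether that spread is between cultures cannot be told. No batch or date was given.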

Additional observations from a re-analysis of the deposited data

How the results depend on the processing

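BMPR2, TGFBR1 and TGFBR2 kept their direction and an adjusted p under 0.05 in all 12 alternatives, and the other 7 receptors stayed above it in all 12. With DESeq2, without TMM, with either filter or with summed rows, 2 receptor genes were higher and 1 lower, as in the reported fit. Leaving out each library gave log2 fold changes of 0.58 to 0.71 for BMPR2, 0.33 to 0.42 for TGFBR1 and -0.27 to -0.21 for TGFBR2, where the adjusted p of TGFBR2 reached 0.0451 (edgeR). The direction of ACVR2A turned without Control replicate 1, with a range of -0.12 to 0.17, and so did the ratio of ACVR1B to ACVR2A, with a log2 difference of -0.213 to 0.075. For CITED2 the range was 0.17 to 0.29, and 2 of these 6 edgeR fits called it, and without TMM its log2 fold change was 0.22 (adjusted p = 0.0518, edgeR). The pathway genes called lower numbered 2 to 4, and 2 without si-CITED2 replicate 3. The cause of these changes was not tested. The labels number the replicates alike under both labels, but same-numbered libraries did not deviate together (Pearson's r across genes -0.038, 0.0336 and -0.0109). With the replicate number as a block, BMPR2 was at 0.66, TGFBR1 at 0.38 and TGFBR2 at -0.24, and 1405 genes were called higher and 1154 lower over all genes. The block changed no call of a receptor. Per exon union, the levels in the libraries labelled Control were 1.49 for ACVR2B, 4.44 for ACVR1, 4.61 for ACVR1B, 0.925 for TGFBR3 and 0.309 for ENG. ENG had the fewest counts of the receptors, 22 to 47 per library, and the widest 95% interval.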
